A study of Homo sapiens with 9 samples.

Results

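Enzymes that make, interconvert or inactivate androgens were followed in 22Rv1 cells, a human prostate carcinoma line grown out of a xenograft, after knockdown of CHD9, a chromodomain helicase of the chromatin-remodelling family. The set was given by name, as 10 genes: AKR1C1, AKR1C2, AKR1C3, SRD5A1, SRD5A3, HSD17B4, HSD17B6, HSD17B11, UGT2B15 and UGT2B17. All 10 were found among the 67071 gene identifiers of the count table, and 9 of them held enough counts to be tested. The 9 libraries form 3 groups of 3. Knockdown cells carried shCHD9_1 (hairpin 1 here) or shCHD9_2 (hairpin 2), short hairpin RNAs against CHD9, and control cells carried shGFP, a hairpin against a gene that human cells lack. All libraries are labelled with a wild-type genotype, and all cells were kept in RPMI medium with serum. The vector, the selection and the time between hairpin delivery and harvest are not stated in the labels. The labels do not say that replicates are separate cultures, and p-values here speak for the spread among these 9 libraries, part or all of which may be technical.

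Cells set the amount of active androgen by enzymes that make the hormone and enzymes that inactivate it. Steroid reductases turn testosterone into dihydrotestosterone, the more potent ligand. Aldo-keto reductases of the AKR1C family reduce ketone groups of steroids, which for AKR1C3 makes testosterone from a weak precursor and for AKR1C2 turns dihydrotestosterone into a weak androstanediol. Hydroxysteroid dehydrogenases of the HSD17B family run related oxidations and reductions, and some of them work mainly on fatty acids or other lipids. The glucuronosyltransferases UGT2B15 and UGT2B17 attach glucuronic acid to dihydrotestosterone and its metabolites, which ends their activity and marks them for export.

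Depth was alike in the groups. The libraries held 20572689 to 27275052 counts with hairpin 1, 20884244 to 31968602 with hairpin 2 and 18911142 to 26103588 with shGFP. Levels below are in CPM, counts scaled to a common library total after TMM normalisation, and tests are edgeR quasi-likelihood tests with Benjamini-Hochberg adjustment over 16855 genes, called at an adjusted p under 0.05. CHD9 itself had 14.8, 16.7 and 14.9 CPM with hairpin 1, 18.3, 18.8 and 19.3 CPM with hairpin 2, and 22.8, 20.5 and 23.2 CPM with shGFP. Each knockdown library lay below each shGFP library, and CHD9 fell with both hairpins. The log2 fold change was -0.52 with hairpin 1. With hairpin 2 it was smaller (-0.24, adjusted p = 0.0060) and lost its call without shGFP replicate 3 (-0.20, adjusted p = 0.054). All 12 markers of prostate luminal epithelium were at 1 CPM or more, as were 3 of 6 fibroblast markers (COL1A1, COL3A1 and PDGFRB), 2 of 6 basal markers (ITGB4 and NGFR), and none of 5 endothelial or 5 leukocyte markers. The fibroblast markers summed to 11.04 to 12.52 CPM with hairpin 1, 10.6 to 13.4 CPM with hairpin 2 and 8.99 to 9.66 CPM with shGFP. The basal markers summed to 5.10 to 5.73, 5.78 to 6.41 and 4.84 to 5.23 CPM in these groups. Their part in the results was not tested.

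With the hairpins averaged, 1 of the 9 tested enzymes rose and 6 fell, where 22.3% of all tested genes rose, 23.2% fell and 45.5% changed in either direction. With hairpin 1, 2 rose and 3 fell, against 23.9% of all genes higher, 23.4% lower and 47.3% in either direction. With hairpin 2, 1 rose and 6 fell, against 17.2%, 18.5% and 35.7%. The share of all genes called is thus high in each comparison, and the counts of enzymes called stand beside that share without a test of their own. The median log2 fold change of the 9 enzymes was -0.16 for the mean of both hairpins, -0.10 with hairpin 1 and -0.27 with hairpin 2, while the median over all tested genes was 0.00 in each. With a correction for GC content and exon length, 2 rose and 4 fell for the mean of both hairpins, 4 rose and 2 fell with hairpin 1, and 1 rose and 5 fell with hairpin 2.

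The groups did not overlap for 4 enzymes in the mean comparison, 1 higher and 3 lower, which is the case for 31.7% of all tested genes (15.5% higher, 16.2% lower). With hairpin 1 this held for 2 enzymes that were higher and 3 that were lower than in shGFP, against 53.9% of all genes (27.0% and 26.9%). With hairpin 2 it held for 1 that was higher and 7 that were lower, against 44.1% (21.4% and 22.7%). SRD5A1 rose with each hairpin, as 13.2% of all genes did. SRD5A3 and UGT2B15 fell with each, as 13.6% of all genes did. AKR1C1 alone among the enzymes was called in opposite directions by the hairpins, which happened for 145 genes, or 0.860% of those tested. The comparisons with shGFP share the same 3 control libraries.

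**Figure D1:**
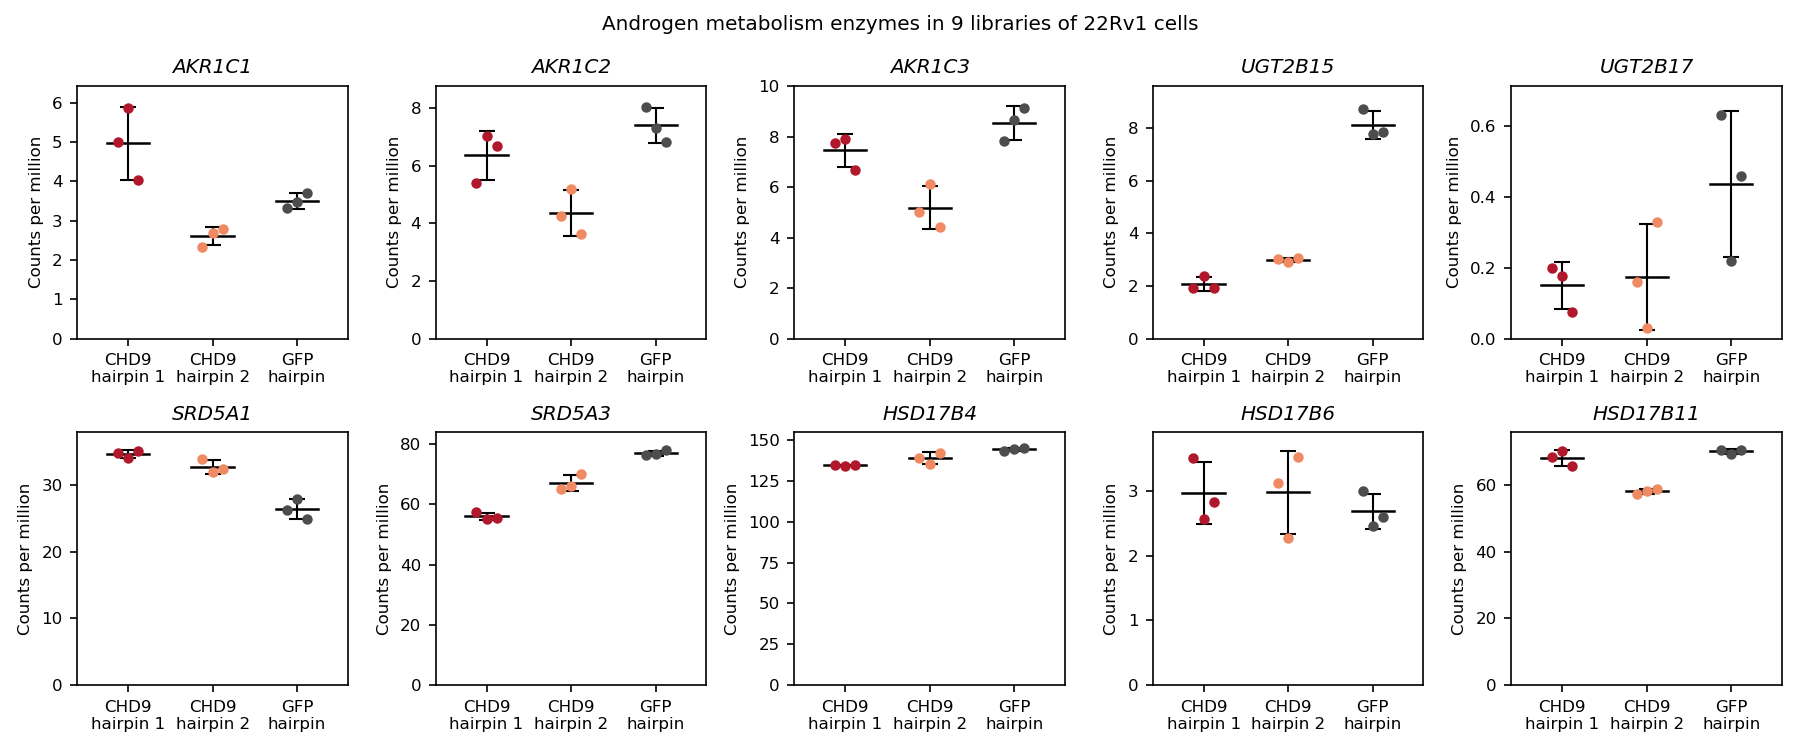
Level of each of the 10 enzymes in CPM (vertical axis, from 0) in the 3 libraries of hairpin 1, of hairpin 2 and of the GFP hairpin. Points are libraries, horizontal lines are means and bars are 1 SD. UGT2B15 stands at 1.93 to 2.40 CPM with hairpin 1 and 2.90 to 3.06 with hairpin 2, against 7.80 to 8.73 with shGFP, and AKR1C1 is above shGFP with hairpin 1 and below it with hairpin 2.

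The largest change in the set was in androgen inactivation. UGT2B15 (ENSG00000196620.10, GRCh38 chr4:68646630-68670628, minus strand) encodes a glucuronosyltransferase that conjugates dihydrotestosterone and androstanediol. It had 39, 54 and 52 counts with hairpin 1, 76, 94 and 65 with hairpin 2, and 166, 177 and 206 with shGFP. That is 1.93, 2.40 and 1.94 CPM with hairpin 1, 3.01, 2.90 and 3.06 CPM with hairpin 2, and 8.73, 7.80 and 7.87 CPM with shGFP. All 6 knockdown libraries lay below all 3 shGFP libraries, and the hairpin 1 libraries lay below those of hairpin 2. UGT2B15 fell with hairpin 1, to 0.258 of its mean in shGFP libraries (log2 fold change -1.96, SE 0.15, edgeR adjusted p = 4.9e-15) and to 0.368 with hairpin 2 (-1.44, SE 0.14, edgeR adjusted p = 9e-12). In bulk RNA, fewer cells that express a gene and less RNA per cell cannot be told apart.

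UGT2B17 (ENSG00000197888.2, chr4:68537184-68568527, minus strand), the paralog that conjugates testosterone and dihydrotestosterone, was counted only a few times in each library. There were 4, 4 and 2 counts with hairpin 1, 4, 1 and 7 with hairpin 2, and 12, 5 and 12 with shGFP. These counts failed the filter, so the gene has no test in the comparison as set. The hairpin 1 libraries lay below the shGFP libraries in CPM (0.0745 to 0.198 against 0.220 to 0.631) and those of hairpin 2 overlapped them. Without a filter, the fitted log2 change for the mean of both hairpins was -1.48 (SE 0.53, edgeR adjusted p = 0.026), and neither hairpin alone passed (adjusted p = 0.070 with hairpin 1 and 0.11 with hairpin 2). The gene passed the filter in 7 of the 9 fits that left out a library. It failed without shGFP replicate 1 and without shGFP replicate 3, which held 12 counts each. In the 7 fits the mean was called in 6, at -1.31 to -1.88, and lost its call without shCHD9_2 replicate 2 (-1.19, adjusted p = 0.052). Hairpin 1 was called in 5 of the 7 (adjusted p 0.019 to 0.048). Hairpin 2 was called in 2, without shCHD9_2 replicate 3 (-2.23, adjusted p = 0.016) and without shGFP replicate 2 (-1.75, adjusted p = 0.029), and had its smallest value, -0.84, without shCHD9_2 replicate 2. The 7 fits all kept both shGFP libraries of 12 counts, so their calls are no separate support for a fall. The call for this gene thus depends on single libraries. A low count in this table does not by itself show a low transcript level. PEX5, a peroxisomal import receptor that most cells need, has 2 counts over all 9 libraries; it was picked after its values were seen.

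The coding sequences of UGT2B15 and UGT2B17 are identical at 96.5% of 1590 positions, and 27.8% of the 50-base windows of the UGT2B15 transcript also occur in another gene, nearly all of them in UGT2B17. Reads from such windows could be assigned to either gene. The stretches below, from the GENCODE 29 transcripts, cover coding bases 244 to 303 and are shown because they are where the copies can be told apart. Capitals mark the 9 bases at which they differ.
UGT2B15: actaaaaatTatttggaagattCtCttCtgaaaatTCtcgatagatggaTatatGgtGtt
UGT2B17: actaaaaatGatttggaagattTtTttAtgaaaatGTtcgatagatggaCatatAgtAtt
With the counts of both genes summed, the level was 2.24 ± 0.298 CPM with hairpin 1, 3.16 ± 0.233 CPM with hairpin 2 and 8.57 ± 0.700 CPM with shGFP (SD, n = 3 each). These sums were 0.261 and 0.369 of the shGFP sum, values that do not depend on how the counted reads were split between the copies. Whether reads that match both copies were counted or dropped is not known, and a sum does not recover dropped reads.

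The UGT2B15 promoter is shown because the gene is known as a target of androgen signalling. Whether androgen raises or lowers UGT2B15 was not measured in these libraries. The window is from RefSeq (GRCh38.p14, chr4:68670603-68670902, minus strand), from 250 bases before to 50 bases after the annotated start. Capitals mark a match to AGAACA, a half-site letter pattern of androgen response elements.
UGT2B15: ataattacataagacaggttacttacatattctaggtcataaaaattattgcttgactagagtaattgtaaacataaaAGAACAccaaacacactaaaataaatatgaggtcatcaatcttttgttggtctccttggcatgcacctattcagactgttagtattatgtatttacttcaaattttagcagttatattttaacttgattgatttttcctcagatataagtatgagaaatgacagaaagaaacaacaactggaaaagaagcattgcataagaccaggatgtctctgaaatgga
The pattern, searched on both strands, occurs in 14.8% of 35116 promoter windows of this length and in no other of the 8 enzymes with a listed promoter. A match describes letters and not a bound site.

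UGT2B11, UGT2B28 and UGT2B7, glucuronosyltransferases encoded near UGT2B15 on chromosome 4, fell with each hairpin. UGT2B11 had 1.58, 1.51 and 1.56 CPM with hairpin 1, 3.17, 2.71 and 2.59 CPM with hairpin 2, and 8.68, 9.66 and 9.70 CPM with shGFP. It fell by 2.59 on the log2 scale with hairpin 1 (SE 0.15, edgeR adjusted p = 1.1e-18) and by 1.73 with hairpin 2 (SE 0.13, edgeR adjusted p = 2.1e-14). The 3 groups did not overlap, with hairpin 1 lowest. UGT2B28, an enzyme that conjugates androgens, averaged 0.249 ± 0.0874 CPM with hairpin 1, 0.591 ± 0.231 CPM with hairpin 2 and 1.59 ± 0.118 CPM with shGFP (SD, n = 3 each). UGT2B7, a conjugator of many steroids and drugs, averaged 0.668 ± 0.0734 CPM with hairpin 1, 1.04 ± 0.157 CPM with hairpin 2 and 2.29 ± 0.109 CPM with shGFP (SD, n = 3 each). Their falls passed the edgeR test with hairpin 1 (log2 fold changes -2.66 and -1.78) and with hairpin 2 (-1.36 and -1.15). UGT2B28 reached the count filter only with its shGFP libraries, where it was highest, so its calls are no separate support for a fall. UGT2B4 and UGT2B10 were too low to test, at 0.128, 0.261 and 0.454 CPM for UGT2B4 with hairpin 1, hairpin 2 and shGFP, and with a single count in 1 shGFP library for UGT2B10. Like UGT2B15, these genes share sequence with copies, UGT2B11 in 40.9% and UGT2B28 in 35.7% of their 50-base windows and UGT2B7 in 6.75%.

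AKR1C4, the mainly hepatic member of the AKR1C family, was low, and lower with each hairpin than with shGFP. It had 1, 5 and 7 counts with hairpin 1, 11, 5 and 10 with hairpin 2, and 14, 23 and 19 with shGFP. The log2 fold change was -2.12 with hairpin 1 (SE 0.49, edgeR adjusted p = 0.00036) and -1.29 with hairpin 2 (SE 0.43, edgeR adjusted p = 0.016). The hairpin 2 call was lost without shCHD9_2 replicate 2, without shGFP replicate 2 and with the DESeq2 Wald test. AKR1C4 reached the count filter only with its shGFP libraries, where it was highest (0.726 to 1.01 CPM). A gene this low could be tested only by being high there, so these calls are no separate support for a fall. UGT2B and AKR1C4 transcripts are abundant in liver, so hepatocyte markers are set beside them. Of 8 such markers, 1 exceeded 1 CPM on average: albumin (ALB), at 123 CPM with hairpin 1, 178 CPM with hairpin 2 and 660 CPM with shGFP. The summed level of the 8 ran from 118.8 to 130.7 CPM with hairpin 1, from 178.3 to 181.4 CPM with hairpin 2 and from 655.7 to 676.4 CPM with shGFP. TTR, a plasma carrier protein of liver, averaged 0.481 CPM with hairpin 1, 0.420 CPM with hairpin 2 and 1.73 CPM with shGFP, lower with the hairpins as ALB was. APOA1 averaged 0.823, 0.711 and 0.655 CPM and HNF4A 0.694, 0.421 and 0.583 CPM with hairpin 1, hairpin 2 and shGFP. APOB, SERPINA1, TAT and CYP3A4 were at no more than 0.030 CPM in any group mean. The part of the ALB and TTR differences in these results was not tested.

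**Figure D2:**
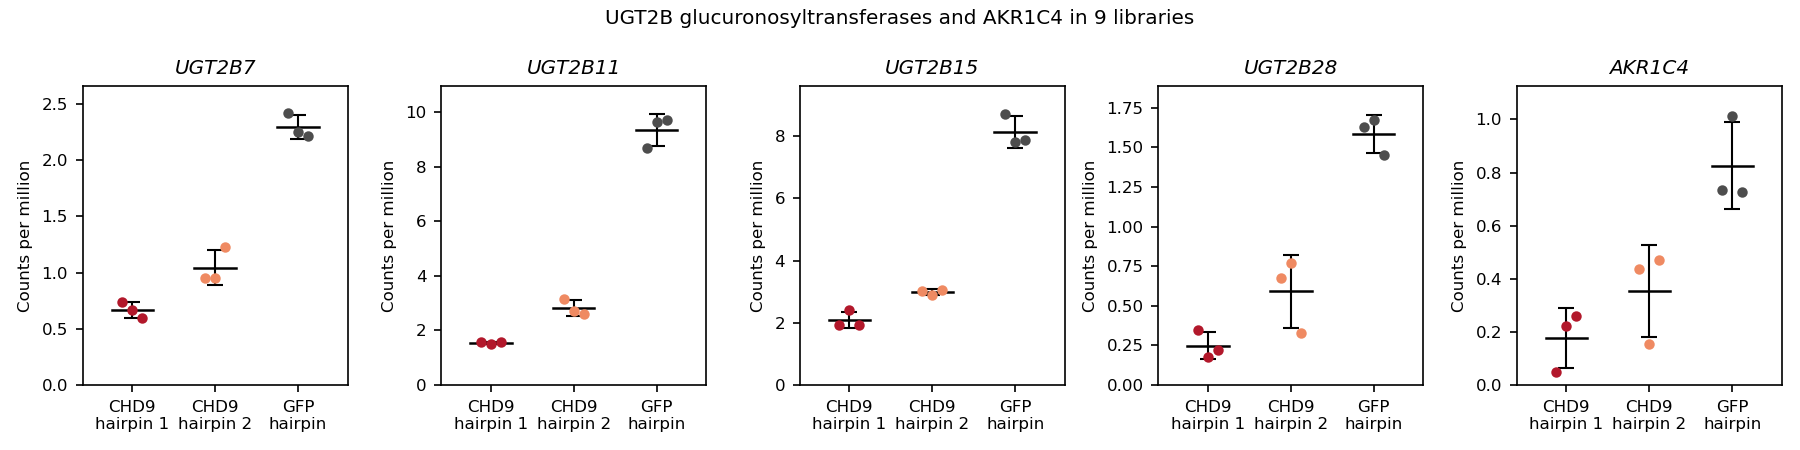
Level of UGT2B7, UGT2B11, UGT2B15, UGT2B28 and AKR1C4 in CPM (vertical axes, from 0, each on its own scale) in the 3 libraries of hairpin 1, of hairpin 2 and of the GFP hairpin. Points are libraries, horizontal lines are means and bars are 1 SD. In each panel the 6 knockdown libraries lie below the 3 shGFP libraries, and the hairpin 1 mean is the lowest.

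Glucuronidation uses UDP-glucuronate as its sugar donor. UGDH, which oxidises UDP-glucose to UDP-glucuronate, averaged 120 ± 3.45 CPM with hairpin 1, 125 ± 3.99 CPM with hairpin 2 and 150 ± 6.17 CPM with shGFP (SD, n = 3 each), and fell by 0.31 and 0.27 on the log2 scale. UGP2, which makes UDP-glucose, fell by 0.43 with the hairpins averaged. SLC35D1, a carrier of UDP-glucuronate into the endoplasmic reticulum, fell by 0.59. UXS1, which turns UDP-glucuronate into UDP-xylose, did not pass (0.05, edgeR adjusted p = 0.51). A list of 17 genes covers the supply of UDP-glucuronate and of NADPH, the reductant used by the steroid reductases. In the mean comparison 2 of them rose, 8 fell and 7 did not pass, with a median log2 fold change of -0.11. Over all tested genes 22.3% rose and 23.2% fell in that comparison. IDH1, a cytosolic source of NADPH, fell by 0.30, NADK, which makes NADP, by 0.21, and ME3, a mitochondrial malic enzyme, by 0.49. With a correction for GC content and length, 4 of the 17 rose and 9 fell.

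AKR1C1, AKR1C2 and AKR1C3 are neighbours on chromosome 10. All 3 fell with hairpin 2, and with hairpin 1 AKR1C1 rose while the changes of the other two did not pass. AKR1C1 (ENSG00000187134.14, chr10:4963253-4983283, plus strand) reduces progesterone and turns dihydrotestosterone into a weak androstanediol. It had 101, 132 and 108 counts with hairpin 1, 59, 87 and 59 with hairpin 2, and 63, 79 and 97 with shGFP. That is 5.00, 5.86 and 4.02 CPM with hairpin 1, 2.34, 2.68 and 2.78 CPM with hairpin 2, and 3.31, 3.48 and 3.71 CPM with shGFP. The 3 groups did not overlap, with hairpin 1 above shGFP and hairpin 2 below it. AKR1C1 rose 1.40-fold with hairpin 1 (log2 fold change 0.49, SE 0.16, edgeR adjusted p = 0.0086) and fell with hairpin 2, to 0.740 of its mean in shGFP libraries (-0.44, SE 0.17, edgeR adjusted p = 0.040). The rise lost its call without shCHD9_1 replicate 2 (0.35, adjusted p = 0.11), the highest library of the group. The fall passed in 8 of 16 alternative fits, and missed the threshold with the DESeq2 Wald test (adjusted p = 0.086), without a filter (0.062), with the GC correction (0.069) and when any of 5 single libraries was left out (0.050 to 0.14). The difference between the hairpins passed in all 16, at log2 values of 0.78 to 1.07.

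AKR1C2 (ENSG00000151632.17, chr10:4987400-5018031, minus strand), which inactivates dihydrotestosterone, had 109, 158 and 179 counts with hairpin 1, 107, 169 and 77 with hairpin 2, and 153, 166 and 179 with shGFP. In CPM that is 5.40, 7.02 and 6.67 with hairpin 1, 4.24, 5.21 and 3.63 with hairpin 2, and 8.04, 7.32 and 6.84 with shGFP. The hairpin 2 libraries lay below all others, and those of hairpin 1 overlapped shGFP. AKR1C2 fell with hairpin 2, to 0.603 of its mean in shGFP libraries (log2 fold change -0.73, SE 0.13, edgeR adjusted p = 1.5e-05). With hairpin 1 the log2 fold change was -0.20 (95% interval -0.46 to 0.05, edgeR adjusted p = 0.19).

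AKR1C3 (ENSG00000196139.14, chr10:5035354-5107686, plus strand), which makes testosterone from androstenedione, had 157, 178 and 180 counts with hairpin 1, 127, 199 and 94 with hairpin 2, and 149, 197 and 239 with shGFP. In CPM that is 7.77, 7.91 and 6.71 with hairpin 1, 5.03, 6.13 and 4.43 with hairpin 2, and 7.83, 8.69 and 9.13 with shGFP. As for AKR1C2, the hairpin 2 libraries were the lowest and the hairpin 1 libraries overlapped shGFP. AKR1C3 fell with hairpin 2, to 0.615 of its mean in shGFP libraries (log2 fold change -0.70, SE 0.12, edgeR adjusted p = 6.2e-06). With hairpin 1 the log2 fold change was -0.21 (95% interval -0.44 to 0.02, edgeR adjusted p = 0.14).

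These genes are near copies, which limits how firmly counts can be given to each. Coding identity was 98.0% between AKR1C1 and AKR1C2, 91.4% between AKR1C1 and AKR1C3 and 91.0% between AKR1C2 and AKR1C3, each over 969 positions. Of the 50-base windows of the main transcript, 28.7% for AKR1C1, 52.2% for AKR1C2 and 12.1% for AKR1C3 also occur in another gene. Coding bases 103 to 162 from the GENCODE 29 transcripts are shown because the 3 copies differ there at 15 bases, marked by capitals.
AKR1C1: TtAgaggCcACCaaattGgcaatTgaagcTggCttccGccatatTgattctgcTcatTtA
AKR1C2: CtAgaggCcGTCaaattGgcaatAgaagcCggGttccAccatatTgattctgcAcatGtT
AKR1C3: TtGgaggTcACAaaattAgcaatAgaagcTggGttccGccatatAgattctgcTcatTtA
The summed level of the 3 genes was 18.8 ± 1.77 CPM with hairpin 1, 12.2 ± 1.66 CPM with hairpin 2 and 19.4 ± 0.242 CPM with shGFP (SD, n = 3 each), or 0.966 and 0.625 of the shGFP sum. Of the counts of the 3 genes, AKR1C1 held 27.5%, 28.2% and 23.1% with hairpin 1, 20.1%, 19.1% and 25.7% with hairpin 2, and 17.3%, 17.9% and 18.8% with shGFP. The lowest hairpin 1 share, 23.1%, has an exact binomial 95% interval of 19.4% to 27.2%, and the highest shGFP share, 18.8%, one of 15.5% to 22.5%, so these libraries did not overlap but their intervals did. The hairpin 2 shares overlapped those of hairpin 1 and lay above those of shGFP. With the counts of each group pooled, AKR1C1 held 26.2% with hairpin 1, 21% with hairpin 2 and 18.1% with shGFP. The lowest hairpin 2 share, 19.1%, has an interval of 15.6% to 23%, which overlaps that of the highest shGFP share. Such intervals cover counting error only.

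The promoters are shown because those of AKR1C1, which rose with hairpin 1, and AKR1C2, which was not called there, are nearly identical. The RefSeq windows (GRCh38.p14) lie at chr10:4963165-4963464 on the plus strand for AKR1C1, chr10:5003808-5004107 on the minus strand for AKR1C2 and chr10:5094164-5094463 on the plus strand for AKR1C3, where the nearer of 2 listed starts, 621 bases from that of the main transcript, was taken. Capitals mark ATTGG, which reads CCAAT on the opposite strand, a letter pattern common in promoters.
AKR1C1: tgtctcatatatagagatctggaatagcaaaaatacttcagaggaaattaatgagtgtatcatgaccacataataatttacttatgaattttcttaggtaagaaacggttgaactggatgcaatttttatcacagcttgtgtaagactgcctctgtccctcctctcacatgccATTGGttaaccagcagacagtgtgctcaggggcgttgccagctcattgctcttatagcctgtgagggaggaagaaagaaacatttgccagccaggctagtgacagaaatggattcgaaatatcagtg
AKR1C2: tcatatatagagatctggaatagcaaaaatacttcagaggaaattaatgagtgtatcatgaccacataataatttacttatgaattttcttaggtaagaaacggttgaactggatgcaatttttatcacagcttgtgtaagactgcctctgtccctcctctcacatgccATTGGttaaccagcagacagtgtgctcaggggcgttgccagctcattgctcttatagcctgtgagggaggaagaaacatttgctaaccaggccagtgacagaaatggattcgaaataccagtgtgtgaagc
AKR1C3: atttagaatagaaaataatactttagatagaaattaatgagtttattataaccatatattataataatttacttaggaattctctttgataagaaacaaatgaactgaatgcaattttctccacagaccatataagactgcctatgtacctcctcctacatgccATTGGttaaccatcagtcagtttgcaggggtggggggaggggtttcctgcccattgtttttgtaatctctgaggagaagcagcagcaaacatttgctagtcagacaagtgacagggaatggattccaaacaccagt
The AKR1C1 and AKR1C2 windows were identical at 288 of 296 aligned positions (97.3%), and either matched AKR1C3 at 75.0%. Searched on both strands, CCAAT occurs in 34.6% of 35116 promoter windows of this length. The pattern TGACNNNGC of antioxidant response elements, which occurs in 13.3%, was not found in these 3 windows, and among the enzymes it was found in that of SRD5A3.

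AKR1C genes are known targets of NRF2, the regulator of antioxidant defence, so other genes of that program are set beside them. Of 29 tested NRF2 target genes other than the enzymes, 9 rose, 8 fell and 12 did not pass in the mean comparison. Their median log2 fold change was 0.01, and 22.3% of all tested genes rose and 23.2% fell there. ABCC2, an efflux pump for conjugates including glucuronides, had 48.4 to 51.3 CPM with hairpin 1, 56.3 to 58.8 CPM with hairpin 2 and 103.8 to 107.7 CPM with shGFP, and fell by 0.99. TKT of the pentose phosphate pathway rose by 0.27, the epoxide hydrolase gene EPHX1 by 0.56, glutathione reductase (GSR) by 0.20 and the peroxiredoxin gene PRDX1 by 0.19. The list thus held members that moved in each direction. With hairpin 1, 10 of the 29 rose and 7 fell, against 23.9% and 23.4% of all tested genes. With hairpin 2, 7 rose and 10 fell, against 17.2% and 18.5%. Between the hairpins, 11 were higher with hairpin 1 and 4 were lower, against 15.6% and 13.6% of all tested genes. A relation of these differences to those of the AKR1C genes was not tested.

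Among the steroid reductases, SRD5A1 rose and SRD5A3 fell. SRD5A1 (ENSG00000145545.12, chr5:6633343-6674386, plus strand) makes dihydrotestosterone from testosterone, and is the form that prostate tumours commonly express. It had 703, 768 and 946 counts with hairpin 1, 857, 1037 and 690 with hairpin 2, and 500, 635 and 655 with shGFP. In CPM that is 34.8, 34.1 and 35.2 with hairpin 1, 34.0, 31.9 and 32.5 with hairpin 2, and 26.3, 28.0 and 25.02 with shGFP. All 6 knockdown libraries lay above all shGFP libraries. SRD5A1 rose 1.32-fold with hairpin 1 (log2 fold change 0.40, SE 0.06, edgeR adjusted p = 1.6e-07) and 1.24-fold with hairpin 2 (0.31, SE 0.06, edgeR adjusted p = 2.1e-05). SRD5A2, the form of the normal prostate, had 1 count in 1 shGFP library and none elsewhere.

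SRD5A3 (ENSG00000128039.11, chr4:55346109-55373096, plus strand) is named as a steroid reductase and is needed to make dolichol, the lipid carrier of N-glycan precursors. It had 57.4, 55.0 and 55.6 CPM with hairpin 1, 65.3, 66.0 and 70.1 CPM with hairpin 2, and 76.4, 76.7 and 78.0 CPM with shGFP. The groups did not overlap, with hairpin 1 lowest. SRD5A3 fell with hairpin 1, to 0.726 of its mean in shGFP libraries (log2 fold change -0.46, SE 0.04, edgeR adjusted p = 4.3e-13) and to 0.870 with hairpin 2 (-0.20, SE 0.04, edgeR adjusted p = 5.3e-05). Of 23 tested genes of dolichol synthesis and N-glycan precursor assembly, 3 rose, 9 fell and 11 did not pass in the mean comparison. Their median log2 fold change was -0.07, and 22.3% of all tested genes rose and 23.2% fell there. ALG10B, ALG11 and DPAGT1, enzymes of the precursor's assembly, fell by 0.40, 0.27 and 0.22, while ALG9, ALG13 and DPM3 of the same pathway rose by 0.49, 0.28 and 0.36. DPAGT1 fell by 0.36 with hairpin 1 and did not pass with hairpin 2 (-0.08, edgeR adjusted p = 0.24). With the GC correction, 5 of the 23 genes rose and 9 fell in the mean comparison.

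Changes of the hydroxysteroid dehydrogenases were small. HSD17B4 (ENSG00000133835.17, chr5:119452443-119637199, plus strand), a peroxisomal enzyme of fatty acid oxidation that can also oxidise estradiol, averaged 134.7 ± 0.423 CPM with hairpin 1, 139.2 ± 3.44 CPM with hairpin 2 and 144.6 ± 0.915 CPM with shGFP (SD, n = 3 each). The knockdown libraries lay below the shGFP libraries. HSD17B4 fell with hairpin 1, to 0.932 of its mean in shGFP libraries (log2 fold change -0.10, SE 0.03, edgeR adjusted p = 0.0051), and the change with hairpin 2 did not pass (-0.06, 95% interval -0.12 to 0.004, edgeR adjusted p = 0.14). With the correction for GC content and length the direction turned, to 0.08 with hairpin 1 (adjusted p = 0.019) and 0.04 with hairpin 2 (adjusted p = 0.34). Of 20 tested genes of peroxisomal oxidation and peroxisome assembly, 2 rose, 6 fell and 12 did not pass in the mean comparison. Over all tested genes 22.3% rose and 23.2% fell there. The sterol carrier gene SCP2 fell by 0.30 and catalase (CAT) rose by 0.23, while the smaller falls of ABCD3, PEX3 and PEX19 did not pass with the GC correction, under which 2 genes rose and 2 fell.

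HSD17B11 (ENSG00000198189.11, chr4:87336610-87391386, minus strand), a lipid droplet enzyme that oxidises androstanediol, differed between the hairpins. It had 68.4, 70.3 and 65.7 CPM with hairpin 1, 57.2, 58.3 and 58.7 CPM with hairpin 2, and 70.5, 69.4 and 70.6 CPM with shGFP. The hairpin 2 libraries lay below all others and those of hairpin 1 overlapped shGFP. HSD17B11 fell with hairpin 2, to 0.828 of its mean in shGFP libraries (log2 fold change -0.27, SE 0.04, edgeR adjusted p = 3.8e-07). With hairpin 1 the log2 fold change was -0.04 (95% interval -0.12 to 0.04, edgeR adjusted p = 0.40), and it turned to 0.16 with the GC correction (adjusted p = 0.00042), while the fall with hairpin 2 stayed called (-0.17). Of 19 tested lipid droplet genes, 9 rose, 6 fell and 4 did not pass in the mean comparison. Their median log2 fold change was 0.14, and 22.3% of all tested genes rose and 23.2% fell there. The droplet coat genes PLIN2 and PLIN5 rose by 0.72 and 1.69 and the triglyceride synthase gene DGAT2 by 0.40, while ACSL3, which activates fatty acids at droplets, fell by 0.61.

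HSD17B6 (ENSG00000025423.11, chr12:56752161-56787790, plus strand), which oxidises androstanediol back to dihydrotestosterone, had 71, 58 and 76 counts with hairpin 1, 79, 74 and 75 with hairpin 2, and 57, 56 and 68 with shGFP. The 3 groups overlapped, at 2.58 to 3.52 CPM with hairpin 1, 2.28 to 3.53 CPM with hairpin 2 and 2.47 to 2.997 CPM with shGFP. No comparison passed, and the 95% interval of the log2 fold change ran from -0.24 to 0.53 with hairpin 1 and from -0.24 to 0.51 with hairpin 2. It shares 132 exonic bases with PRIM1 on the opposite strand, and because no source names the strand setting of the counter, reads from the overlap cannot be told apart.

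**Figure D3:**
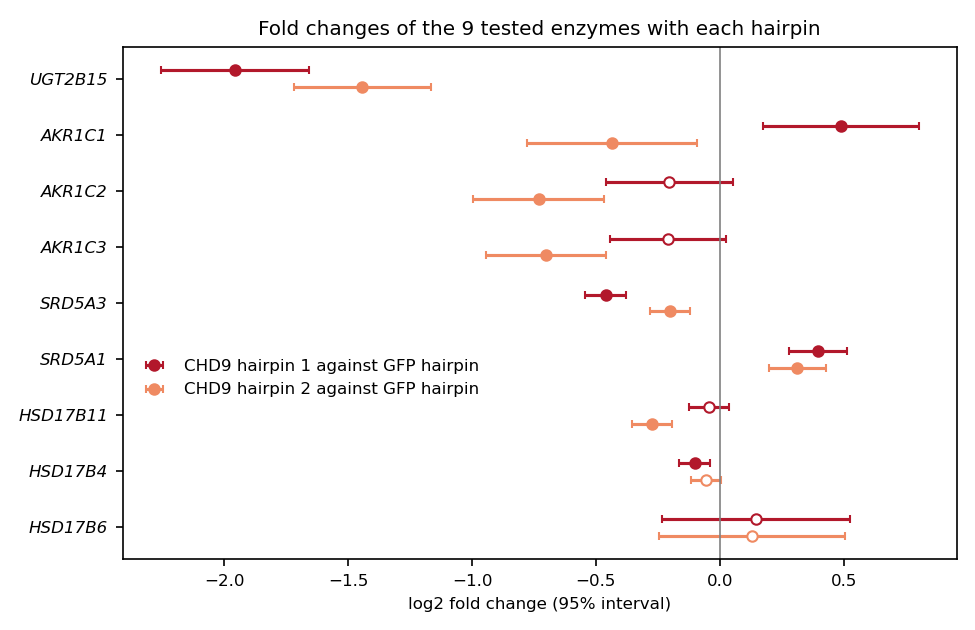
log2 fold change of the 9 tested enzymes (horizontal axis, with 95% intervals) with hairpin 1 and with hairpin 2, each against the GFP hairpin. Filled points passed an adjusted p of 0.05 and open points did not. UGT2B15 lies farthest from 0 with both hairpins (-1.96 and -1.44), and AKR1C1 lies on opposite sides of 0 (0.49 and -0.44).

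Set against each other, hairpin 1 was higher than hairpin 2 for 4 of the 9 enzymes and lower for 2, where 15.6% of all tested genes were higher, 13.6% lower and 29.2% changed in either direction. The libraries did not overlap for 5 enzymes that were higher with hairpin 1 and 3 that were lower, against 39.6% of all genes (20.6% and 18.9%). With the GC correction 4 were higher and 1 lower. AKR1C1 was 1.90-fold higher with hairpin 1 than with hairpin 2 (log2 difference 0.92, SE 0.16, edgeR adjusted p = 1.2e-05). AKR1C2 and AKR1C3 were 1.44-fold and 1.41-fold higher with hairpin 1 (0.53, adjusted p = 0.0019, and 0.49, adjusted p = 0.0015), and HSD17B11 was 1.17-fold higher (0.23, adjusted p = 1.3e-05). SRD5A3 and UGT2B15 were lower with hairpin 1, at 0.835 and 0.700 of the hairpin 2 level (-0.26, adjusted p = 2e-06, and -0.51, adjusted p = 0.018). The UGT2B15 difference lost its call without shCHD9_1 replicate 1 (-0.47, adjusted p = 0.058), without shCHD9_1 replicate 3 (-0.45, adjusted p = 0.082) and with the GC correction (-0.38, adjusted p = 0.090). CHD9 itself was lower with hairpin 1 than with hairpin 2 (log2 difference -0.28, adjusted p = 0.0024), and what this difference contributes to the others was not tested. The log2 difference for SRD5A1 was 0.08 (95% interval -0.03 to 0.19), which did not pass.

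Levels can be set between genes only per length of transcript, here per kilobase of the main GENCODE 29 transcript. In shGFP libraries HSD17B4 had 53.8 ± 0.341, HSD17B11 37.2 ± 0.362 and SRD5A3 18.4 ± 0.206 CPM per kilobase (SD, n = 3 each). UGT2B15 had 3.92 ± 0.248 and SRD5A1 3.71 ± 0.209, which did not differ beyond their spread, and HSD17B6 had 1.54 ± 0.157. In hairpin 1 libraries UGT2B15 had 1.01 and SRD5A1 4.87 CPM per kilobase, and in hairpin 2 libraries 1.44 and 4.60. AKR1C1, AKR1C2 and AKR1C3 had 0.522, 1.97 and 4.73 CPM per kilobase in shGFP libraries on main transcripts of 6705, 3756 and 1807 bases. They were not ranked, since which isoforms were counted is not known. The same limit holds for the values of the other enzymes.

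In the wider list of 55 genes of steroid hormone metabolism other than the 10 enzymes, 27 could be tested. In the mean comparison 5 rose, 12 fell and 10 did not pass, with a median log2 fold change of -0.15. With hairpin 1, 3 rose and 13 fell, and with hairpin 2, 4 rose and 13 fell. Over all tested genes 22.3% rose and 23.2% fell in the mean comparison. The shares were 23.9% and 23.4% with hairpin 1, and 17.2% and 18.5% with hairpin 2. Among the genes that rose in the mean comparison were HSD11B2 (by 0.39) and HSD3B7 (by 0.18). Besides the UGT2B genes, PAPSS1, which makes the sulfate donor, fell by 0.33, SUMF1, the activator of sulfatases, by 0.48, and HSD17B7, which acts mainly in cholesterol synthesis, by 0.62. CYP17A1, which opens androgen synthesis from progestogens, had no count in any library, and HSD3B1, which makes androstenedione, had at most 1 count in a library.

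Some genes known to respond to androgens were measured in the same libraries. In the mean comparison KLK2 rose by 0.55, KLK3, which encodes prostate-specific antigen, by 0.50, TMPRSS2 by 0.42 and the co-chaperone gene FKBP5 by 0.29. With hairpin 2 alone TMPRSS2 did not pass (0.16, edgeR adjusted p = 0.15). UGT2B15 fell in the mean comparison in which these genes rose, and no relation between them was tested. The direction of a UGT2B15 response to androgen was not measured here.

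For the 3 enzymes with the widest range of group means, the genes of at least 5 CPM with the most similar profile over the 9 libraries were found by the root mean square difference of centred log2 CPM, among 10625 or 10626 candidates. For UGT2B15 these were SEMA3C, a secreted semaphorin (difference 0.103), the cadherin gene CDH12 (0.134) and the transcription factor gene SOX9 (0.137). SEMA3C averaged 36.7 CPM with hairpin 1, 52.7 CPM with hairpin 2 and 124 CPM with shGFP. For AKR1C1 they were the laminin gene LAMA3 (0.138), BTG2 (0.146) and BIK (0.161), and BTG2, an antiproliferative gene, averaged 121 CPM with hairpin 1, 70.0 CPM with hairpin 2 and 88.2 CPM with shGFP. For AKR1C2 they were the butyrylcholinesterase gene BCHE (0.123), the copper transporter gene SLC31A2 (0.147) and RIDA (0.156). Such profiles share libraries and depth and are given as a description.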

How the data were processed

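RNA from 9 libraries of 22Rv1 cells was sequenced. The libraries were stranded and made from polyadenylated RNA, per the labels' protocols. Trim Galore, STAR, DESeq2 and the build hg38 are named, per the submitters' processing notes. Not given in the sources used here are which counter made the table, its strand setting, its annotation and its handling of reads that match several genes. The authors deposited raw read counts per gene, 1 table for all libraries.

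Each library took its group from its title. Counts were filtered with filterByExpr (minimum count 10), scaled by TMM and fitted in edgeR 4.0.16 (R 4.3.3) as 3 group means. The 4 contrasts were tested by quasi-likelihood with Benjamini-Hochberg adjustment over all 16855 genes: both CHD9 hairpins averaged and each alone, against shGFP, and hairpin 1 over hairpin 2. The procedure was also run on simulated counts, in which far fewer genes changed than here and both hairpins changed them alike. Such a run does not show how the procedure performs on these data. Pairs of libraries within a group differed by more than counting noise (chi-square per degree of freedom 1.70 to 2.73, against 8.87 to 27.7 between groups). Each library was treated as a replicate, though this spread cannot show that they are separate cultures. The common coefficient of variation was 2.74%, and part or all of it may be technical.

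The enzymes and the gene lists were chosen with earlier results of these data known, and no list was tested as a set. Named genes are the 10 enzymes, CHD9, androgen-responsive genes, up to 6 genes with the smallest p in each list, and the 3 genes closest in profile to each of 3 enzymes. Other genes were named to describe a list, and some genes that this rule names are not reported here. Sequences and windows come from GENCODE 29 transcripts (GRCh38) and RefSeq promoters (GRCh38.p14, 8 of the 10 enzymes), read with Biopython 1.88. Alternatives were DESeq2 size factors, the DESeq2 1.42.0 Wald test, no filter, a filter of 1 CPM in 6 libraries, an adjusted p under 0.01, the compared groups alone, the replicate number as a block, offsets for GC content and exon length (values for 97.8% of genes), and leaving out each library.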

Additional observations from a re-analysis of the deposited data

Results flagged for a closer look

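The 6 results below were picked out because the hairpins differed from each other by the edgeR test of hairpin 1 against hairpin 2, each as a log2 difference of hairpin 1 from hairpin 2. AKR1C1 differed by 0.92, with hairpin 1 above shGFP and hairpin 2 below it. AKR1C2 differed by 0.53 and AKR1C3 by 0.49, both with a fall that was called with hairpin 2 and not with hairpin 1. HSD17B11 differed by 0.23 in the same way. SRD5A3 differed by -0.26 and UGT2B15 by -0.51, with falls called with each hairpin and larger ones with hairpin 1. Of all tested genes, 29.2% differed between the hairpins by the same test.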

How the results depend on the processing

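Of 603 values of the 9 tested enzymes under the alternatives, 577 kept their direction and their side of the threshold, 17 kept the direction but lost the call, and 9 turned. The counts of enzymes and of genes called stayed within 1.5 times in every alternative run. Leaving out 1 library in turn gave 6 to 8 enzymes called for the mean of both hairpins, 4 to 6 with hairpin 1, 6 to 8 with hairpin 2 and 5 to 6 between the hairpins. With the correction for GC content and length, HSD17B4 turned in all 4 comparisons (0.0603 for the mean, 0.083 with hairpin 1, 0.0377 with hairpin 2 and 0.0454 between the hairpins) and HSD17B11 turned with hairpin 1 (0.16) and lost its call for the mean (-0.0049). The cause was not tested. AKR1C1 for the mean turned without shCHD9_1 replicate 2 (-0.0423) and without shGFP replicate 1 (-0.0079), within -0.0423 to 0.099 over the libraries left out. HSD17B6 between the hairpins turned without shCHD9_1 replicate 1 (-0.12) and without shCHD9_2 replicate 2 (-0.167), within -0.167 to 0.146. UGT2B15 between the hairpins lost its call with the GC correction (-0.38), without shCHD9_1 replicate 1 (-0.47) and without shCHD9_1 replicate 3 (-0.45). HSD17B4 for the mean lost its call without shGFP replicate 3 (adjusted p = 0.052). The CHD9 fall with hairpin 2 ranged from -0.29 to -0.20 when single libraries were left out. With the replicate number as a block, 7 enzymes and 7669 genes were called for the mean of both hairpins, against 7 and 7675 without it. No shared effect of the replicate number was seen: correlations of deviations between same-numbered libraries were -0.022 to 0.040, and 0 of 9 exceeded 0.1. These values cannot show whether same-numbered libraries were handled together. The fit on the compared groups alone has no separate form for the mean of both hairpins and was not run there. Counts of 1 to 12 per library limit UGT2B17, and near-identical copies limit the AKR1C and UGT2B genes.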
